A study of Rattus norvegicus with 10 samples.

Results

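Transcripts of 42 leukocyte lineage marker genes were examined in nasal transitional epithelium that had been cut out by laser capture microdissection. The genes are a chosen list of pan-leukocyte, macrophage and myeloid, granulocyte, T cell, B cell, natural killer (NK) and mast cell markers. The list was drawn up with earlier results of these data known, and its probe sets were taken by gene symbol. A marker was followed through every probe set whose single symbol in the platform annotation is that of the gene. By this rule 41 of the 42 genes were measured, with 52 probe sets, among 14217 genes and 31042 probe sets in all. The exception was Cd79a, a signalling chain of the B cell receptor, for which no probe set carried the symbol alone. A gene with more than 1 probe set is given by the one with the highest mean, and the markers' other probe sets are named where their call or direction differed.

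The animals were male F344/N rats, aged 5 to 6 weeks when dosing began. One group was gavaged with N,N-dimethyl-p-toluidine (DMPT), an aromatic amine used in dental and bone cements, at 120 mg/kg/day in corn oil on 5 consecutive days. The other group received the corn oil vehicle alone. Each group held 5 arrays, each from a separately numbered rat, and the captured tissue was a strip of epithelium rather than sorted cells. The question was which leukocyte transcripts in that tissue differed between the groups. In such bulk tissue, fewer cells of a type and less RNA per cell cannot be told apart.

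Leukocytes live within and beneath the nasal lining. Macrophages take up debris and microbes through scavenger and Fc receptors, granulocytes are recruited from blood, and T, B, NK and mast cells carry antigen-specific, cytotoxic and granule-based functions. The tetraspanins, integrins and the phosphatase CD45 are shared across these lineages, while receptor complexes such as CD3 mark one lineage. Several macrophage markers are not exclusive to macrophages: CD14 is also made by epithelial cells, and the mannose receptor and stabilin-1 are also found on some endothelial cells.

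The values are log2 RMA expression values, so a difference of 1 is a doubling, and a difference is always DMPT minus vehicle. The capture label was checked with 14 measured epithelial markers, whose means lay between 11.8 and 14.3, all above the median of the means of all probe sets (8.26). Some genes of other cell types were as bright. The means of 15 stromal genes ran from 3.89 to 13.2, and those of 7 red cell genes from 5.85 to 13.4. The check therefore shows epithelial RNA but does not measure the purity of the capture. The arrays had medians between 8.21 and 8.35. Vehicle replicate 2 stood apart, with a mean correlation of 0.975 with the other vehicle arrays, where the next lowest array had 0.985. For markers whose values are given in every array, calls or directions that changed without it are given with and without it.

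Of the 41 measured markers, 6 were higher after DMPT, 1 was lower and 34 did not pass the test (limma, adjusted p under 0.05 over all probe sets). The called share was 17.1% of the markers, where 13.9% of all 14217 genes were called, 7.13% higher and 6.77% lower. The macrophage and myeloid markers Cd14, Cd68, Mrc1 and Fcgr2b and the granulocyte markers Slfn4 and Mmp8 rose, and the pan-leukocyte marker Cd37 fell. Not 1 of the 17 T, B, NK and mast cell markers passed in limma, and at an unadjusted p under 0.05 there was 1, Prf1. The groups did not overlap for 3 markers, or 7.32%, against 13.9% of all genes. Differences were above 0 for 27 markers and below 0 for 14, with a median of 0.07, beside -0.0052 over all genes.

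The count of markers that rose depended on single animals. It was 2 without DMPT replicate 3 or without vehicle replicate 1, and 3 without DMPT replicate 1, DMPT replicate 2 or vehicle replicate 3. With each other array left out in turn it was 4 or 5. Cd14 and Cd68 kept their call without any one array, and the other 5 called markers each lost it without 6 or 7 of the 10 arrays. The 3' minus 5' log2 difference of the arrays' GAPDH and beta-actin controls, a measure of RNA quality, was 1.17 to 1.5 in the vehicle arrays and 0.87 to 1.30 after DMPT. With this value as a covariate Cd14 and Cd68 kept their calls, Mrc1, Fcgr2b, Mmp8, Slfn4 and Cd37 lost theirs (limma adjusted p between 0.0625 and 0.114), and Prf1, perforin, gained one.

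**Figure D1:**
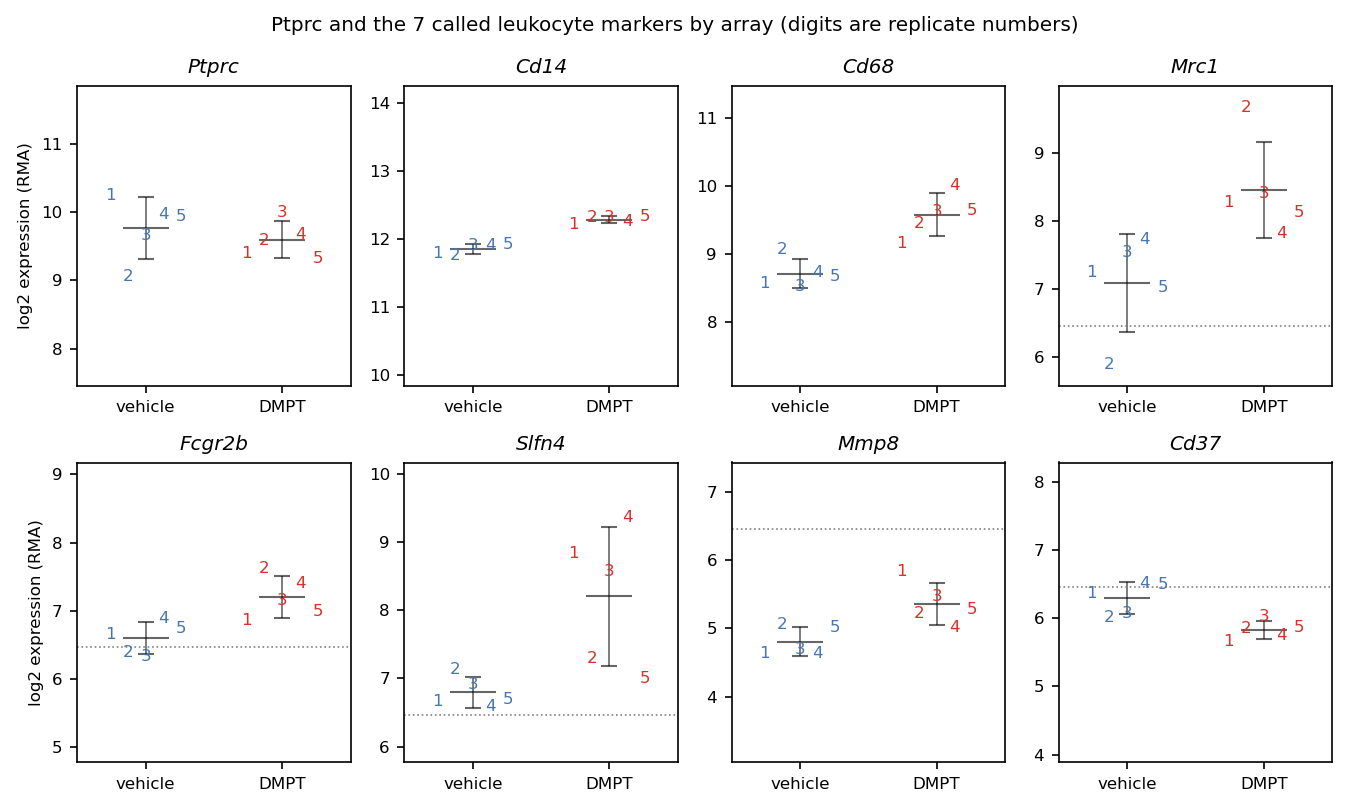
Log2 expression of the 7 called markers and of Ptprc in every array, vehicle and DMPT side by side, with each group's mean and standard deviation. The groups are apart for Cd14, Cd68 and Mrc1 and share part of their range for the others.

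Cd68, the lysosomal glycoprotein used as a general macrophage marker, was measured at 8.57, 9.07, 8.53, 8.74 and 8.67 in vehicle replicates 1 to 5. After DMPT it was 9.16, 9.46, 9.63, 10.01 and 9.65. Every DMPT array was above every vehicle array, with the closest pair being DMPT replicate 1 and vehicle replicate 2. The means were 8.71 ± 0.21 and 9.58 ± 0.31 (SD, n = 5 each), a difference of 0.87 (SE 0.16) or 1.82-fold, with a limma adjusted p of 0.00471. Leaving out any array gave differences between 0.76 and 0.97.

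Cd14, the lipopolysaccharide co-receptor, was 11.78, 11.76, 11.90, 11.91 and 11.91 in the vehicle arrays. After DMPT it was 12.22, 12.31, 12.31, 12.26 and 12.32. Its groups were narrow and separate, although the step between them was small. The means of 11.85 ± 0.07 and 12.28 ± 0.04 (SD, n = 5 each) differed by 0.43 (SE 0.08), or 1.35-fold (limma adjusted p = 0.00435). Its probe set mean stood at the 95.7th percentile of all probe sets, in the range of the epithelial markers.

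Mrc1, the macrophage mannose receptor, was 7.24, 5.90, 7.54, 7.74 and 7.02 in the vehicle arrays. The DMPT arrays gave 8.27, 9.67, 8.41, 7.82 and 8.12. DMPT replicate 2 was the highest array and vehicle replicate 2 the lowest, and the lowest DMPT array lay just above the highest vehicle array. The means were 7.09 ± 0.72 and 8.46 ± 0.71 (SD, n = 5 each), a difference of 1.37 (SE 0.38) or 2.58-fold (limma adjusted p = 0.0395). Without vehicle replicate 2 the difference was 1.07 (limma adjusted p = 0.0548), and without DMPT replicate 2 it was also 1.07 (limma adjusted p = 0.0652). The call was kept only without DMPT replicate 4, vehicle replicate 3 or vehicle replicate 4.

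Fcgr2b, the inhibitory Fc receptor for IgG on myeloid and B cells, was 6.65, 6.40, 6.34, 6.89 and 6.75 in the vehicle arrays. DMPT replicates 1 to 5 gave 6.86, 7.62, 7.15, 7.40 and 6.98. The groups overlapped by 1 pair, DMPT replicate 1 and vehicle replicate 4. The difference was 0.60 (SE 0.16), or 1.51-fold (limma adjusted p = 0.0333). The call was lost without 6 of the 10 arrays, with adjusted p up to 0.0820 in limma. Vehicle replicate 2 was among these 6, and without it the difference was 0.54 (limma adjusted p = 0.0569).

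The other macrophage and myeloid markers did not pass. Csf1r, the receptor for the growth factor that keeps macrophages alive, was 9.14, 8.91, 8.85, 9.16 and 8.93 in the vehicle arrays. The treated rats gave 8.85, 9.28, 9.30, 9.32 and 9.01 after DMPT. Its groups overlapped, with a difference of 0.16 (95% interval -0.10 to 0.41, limma adjusted p = 0.467).

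Cd163, the scavenger receptor for haemoglobin on tissue macrophages, was 6.43, 6.68, 6.63, 6.53 and 5.93 in the vehicle arrays. It was 7.06, 6.44, 6.50, 6.90 and 6.59 after DMPT. These ranges overlapped too, with a difference of 0.26 (95% interval -0.10 to 0.62, limma adjusted p = 0.379). Of the remaining markers, the adaptor Tyrobp differed by 0.32, the adaptor Fcer1g by 0.16 and the calcium-binding protein Aif1 by 0.06. The integrin chains Itgam and Itgax differed by 0.20 and 0.25. In all, 11 of the 12 macrophage and myeloid differences were above 0, with a median of 0.25.

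Lyn, a Src-family kinase of myeloid and B cells, had 2 probe sets that gave different calls. The brighter one ranged from 8.46 to 10.08 in the vehicle arrays and from 9.32 to 9.63 after DMPT, a difference of -0.07 (limma adjusted p = 0.913). The dimmer one ranged from 9.44 to 9.75 in the vehicle arrays and from 9.03 to 9.41 after DMPT, without overlap. That probe set was lower by a difference of -0.34 (SE 0.10, limma adjusted p = 0.0497), and it kept the call only without vehicle replicate 2.

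Endothelial markers were also mostly higher after DMPT. Of 14 measured endothelial genes 9 rose and 0 fell (64.3% called, beside 13.9% of all genes), with a median difference of 1.01. Their summed log2 level was 94.92 to 109.54 in the vehicle arrays and 107.13 to 123.45 after DMPT, and that of the 12 macrophage and myeloid markers was 99.95 to 104.59 and 104.04 to 108.86. Both scores exceeded every vehicle score in 4 of the 5 treated rats, but not in the same ones: the exception was DMPT replicate 1 for the macrophage score and DMPT replicate 2 for the endothelial score. Pecam1, a junction protein of endothelium, differed by 1.15 (SE 0.17, limma adjusted p = 0.0016). The endothelial genes Esam, Kdr and Sox18 differed by 1.19, 2.06 and 0.95, although a dimmer Kdr probe set differed by 0.14 and was not called. Sox18 lost its call with the RNA quality covariate.

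Of the 14 epithelial genes 4 rose and 1 fell (35.7% called, beside 13.9% of all genes), and 12 differences were above 0. The keratins Krt5, Krt8 and Krt7 and the claudin Cldn7 differed by 0.60, 0.44, 0.58 and 0.57, and Foxj1, a regulator of motile cilia, by -0.88. The epithelial score exceeded every vehicle score in 5 of 5 treated rats, at 0.12 to 0.28 beside -0.14 to 0.05. Of 15 stromal genes 1 was called, Pcolce, with a difference of 1.66. Of 8 olfactory neuron genes Adcy3 rose by 0.52 and Gap43 differed by -0.79, and of 7 red cell genes 0 were called by limma, with 1 at an unadjusted p under 0.05. With the RNA quality covariate Krt7, Adcy3 and Gap43 lost their calls. Krt7 also lost its call without any of 4 arrays, and Adcy3 without any of 9. The part of endothelial or epithelial RNA in the values of Mrc1, Fcgr2b and Cd14 was not tested.

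**Figure D2:**
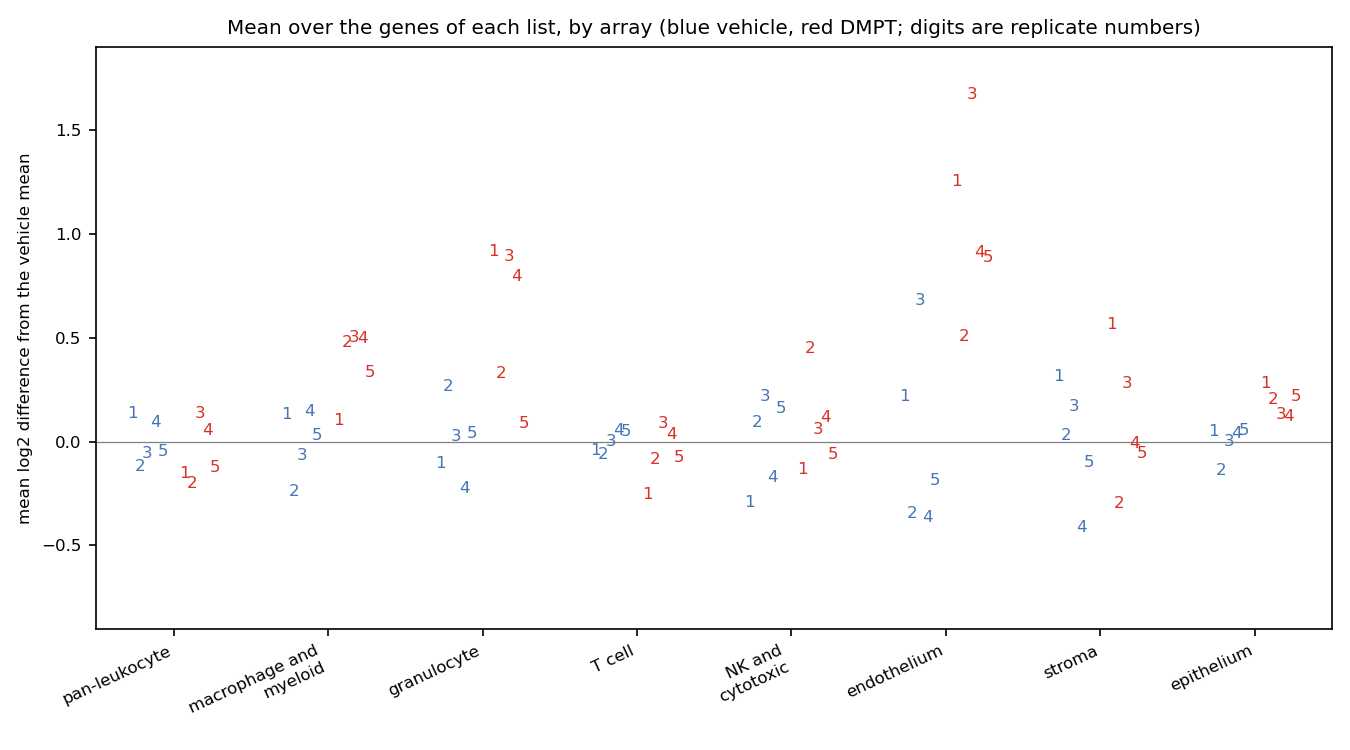
Mean log2 difference from the vehicle mean over the measured genes of each marker list (blue vehicle, red DMPT), with each array drawn as its replicate number. Macrophage, granulocyte and endothelial scores exceed every vehicle score in 4 of the 5 treated rats, epithelial scores in 5, pan-leukocyte scores in 0 and T cell scores in 1. A wider set of further leukocyte genes, not drawn, gave other counts. Its pan-leukocyte score did so in 4, its macrophage and dendritic score in 2 and its granulocyte score in 1.

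The sequences upstream of 4 markers are shown because the markers that rose are mostly myeloid, and the factor PU.1, which binds a purine-rich box, is a known regulator of myeloid genes. The sequences are the 250 bases before the RefSeq gene start in assembly GRCr8, read 5′ to 3′ on the gene's strand. Capitals mark the letters GAGGAA or their reverse complement TTCCTC, searched on both strands. These letters contain the GGAA core shared by the ETS family of factors. Cd68 (chr10:54882442-54882691, minus strand) holds 1 match, Mrc1 (chr17:82157475-82157724, plus strand) holds 2, and Slfn4 (chr10:68491970-68492219, plus strand) holds 1. Ptprc (chr13:52259747-52259996, minus strand), whose transcript did not pass the test, also holds 1. Of the other called markers, Cd14, which rose, holds 2 matches, Mmp8, which rose, holds 0, and Cd37, which fell, holds 1. A relation between the letters and the calls was not tested.
Cd68: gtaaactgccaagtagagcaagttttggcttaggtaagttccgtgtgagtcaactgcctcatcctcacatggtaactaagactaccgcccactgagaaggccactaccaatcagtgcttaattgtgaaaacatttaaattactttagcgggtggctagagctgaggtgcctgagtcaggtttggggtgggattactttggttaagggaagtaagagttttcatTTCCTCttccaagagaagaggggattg
Mrc1: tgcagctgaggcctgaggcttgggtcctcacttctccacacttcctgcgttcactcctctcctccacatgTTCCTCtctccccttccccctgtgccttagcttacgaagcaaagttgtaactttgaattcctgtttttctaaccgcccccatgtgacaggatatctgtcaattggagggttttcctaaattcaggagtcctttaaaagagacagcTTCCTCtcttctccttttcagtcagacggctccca
Slfn4: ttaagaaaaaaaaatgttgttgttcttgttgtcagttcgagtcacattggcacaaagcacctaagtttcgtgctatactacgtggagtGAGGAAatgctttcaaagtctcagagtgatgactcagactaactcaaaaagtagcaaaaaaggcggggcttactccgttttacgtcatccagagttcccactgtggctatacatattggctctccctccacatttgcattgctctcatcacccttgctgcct
Ptprc: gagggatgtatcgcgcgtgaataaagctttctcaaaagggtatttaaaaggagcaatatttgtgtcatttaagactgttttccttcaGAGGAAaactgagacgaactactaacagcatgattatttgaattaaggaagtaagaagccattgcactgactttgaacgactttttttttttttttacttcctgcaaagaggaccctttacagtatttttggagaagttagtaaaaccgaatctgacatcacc

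The match began 27 bases before the start in Cd68, 180 and 35 bases before it in Mrc1, 162 in Slfn4 and 163 in Ptprc. A window was found for 30 of the 42 markers. Itgb2, Lcp1, Lyn, Tyrobp, Fcer1g, Aif1, Fcgr2b, Cd4, Cd8b, Lcp2, Cd79b and Klrd1 had none. The letters occurred in 16 of these 30 windows (53.3%) and in 6379 of 27457 windows of the same length over all genes (23.2%). By lineage they occurred in 5 of 7 macrophage and myeloid windows, 4 of 7 pan-leukocyte windows, 2 of 3 granulocyte windows, 3 of 8 T cell windows, 1 of 1 B cell windows (Cd79a), 1 of 2 mast cell windows and 0 of 2 NK windows. A match is a run of letters, not a measured binding site, and base composition was not matched between the windows.

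Among the 3 granulocyte markers, 2 rose, where 7.13% of all genes were called higher. A count from 3 genes was not read as a result for the lineage. Slfn4, a Schlafen gene expressed in myeloid cells, was 6.66, 7.13, 6.91, 6.58 and 6.69 in the vehicle arrays. Values after DMPT were 8.83, 7.28, 8.57, 9.35 and 7.00. DMPT replicates 1, 3 and 4 stood well above every vehicle array. DMPT replicate 2 lay just above the vehicle range and DMPT replicate 5 within it. The means of 6.79 ± 0.22 and 8.21 ± 1.02 (SD, n = 5 each) differed by 1.41 (SE 0.39), or 2.66-fold (limma adjusted p = 0.0394).

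The call for Slfn4 was kept only without DMPT replicate 2, DMPT replicate 5 or vehicle replicate 2. A dimmer Slfn4 probe set, with a mean of 4.45, differed by 0.10 (limma adjusted p = 0.627). The mean of both probe sets differed by 0.76.

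Mmp8, the collagenase stored in neutrophil granules, was 4.63, 5.06, 4.69, 4.64 and 5.02 in the vehicle arrays. After DMPT it was 5.84, 5.22, 5.46, 5.02 and 5.28. Only DMPT replicate 4 lay within the vehicle range. The difference was 0.56 (SE 0.16), or 1.47-fold (limma adjusted p = 0.0409), and the call was kept only without DMPT replicate 4, vehicle replicate 2 or vehicle replicate 5. The mean of this probe set stood at the 10.4th percentile of all probe sets, which is near background.

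Csf3r, the receptor for granulocyte colony-stimulating factor, was 4.19, 4.40, 4.27, 3.90 and 4.19 in the vehicle arrays. The DMPT arrays gave 3.87, 4.27, 4.43, 3.80 and 3.77. The groups overlapped over most of their range, with a difference of -0.16 (95% interval -0.48 to 0.16, limma adjusted p = 0.565). Its probe set stood at the 4.38th percentile.

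The 9 pan-leukocyte markers had 1 call (11.1%, beside 13.9% of all genes), and that was lower. Ptprc, which encodes CD45, was 10.25, 9.05, 9.67, 9.97 and 9.93 in the vehicle arrays. DMPT replicates 1 to 5 gave 9.39, 9.59, 10.00, 9.68 and 9.32. All DMPT values lay within the vehicle range. The means of 9.77 ± 0.45 and 9.59 ± 0.27 (SD, n = 5 each) differed by -0.18 (95% interval -0.63 to 0.27, limma adjusted p = 0.665). Vehicle replicate 2 was the lowest array; without it the difference was -0.36 (limma adjusted p = 0.164). A dimmer Ptprc probe set differed in the other direction, by 0.17 (limma adjusted p = 0.571).

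Cd37, a leukocyte tetraspanin found at high level on B cells, was 6.37, 6.02, 6.07, 6.51 and 6.49 in the vehicle arrays. Values after DMPT were 5.66, 5.85, 6.02, 5.75 and 5.87. The overlap was limited to DMPT replicate 3 at the bottom of the vehicle range. The difference was -0.46 (SE 0.12), or 1.38-fold lower (limma adjusted p = 0.0319), and the call was kept only without DMPT replicate 3, vehicle replicate 2 or vehicle replicate 3. Cd37 stood at the 19.9th percentile, near background.

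Lcp1, the actin-bundling protein L-plastin, was 11.41, 11.54, 11.59, 11.66 and 11.66 in the vehicle arrays. After DMPT it was 10.94, 11.37, 11.41, 11.50 and 11.14. DMPT replicates 1, 2 and 5 lay below every vehicle array, and the difference of -0.30 (SE 0.12) did not pass (limma adjusted p = 0.125). The tetraspanin Cd53 differed by 0.27 (limma adjusted p = 0.183). The other 5 pan-leukocyte markers differed by -0.19 for Itgb2, 0.01 for Coro1a, 0.02 for Cd52, 0.07 for Laptm5 and 0.24 for Cd48, and none passed.

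No T cell marker of the 11 measured passed the test, where 13.9% of all genes did. Their differences ran from -0.39 to 0.11 with a median of -0.02, and the 95% intervals of all 11 lay between -0.79 and 0.63. Cd3e, a signalling chain of the T cell receptor complex, was 5.46, 6.10, 6.12, 5.57 and 6.17 in the vehicle arrays. The DMPT arrays gave 5.08, 5.94, 5.81, 5.71 and 5.74. The groups overlapped, with DMPT replicate 1 lowest, and the difference was -0.23 (limma adjusted p = 0.51). A dimmer Cd3e probe set differed in the other direction, by 0.26 (limma adjusted p = 0.357).

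Cd3g, another chain of that complex, was 10.36, 11.13, 10.59, 10.41 and 10.44 in the vehicle arrays. DMPT replicates 1 to 5 gave 9.65, 10.26, 10.19, 10.49 and 10.41. Vehicle replicate 2 was the highest and DMPT replicate 1 the lowest array, and the difference was -0.39 (95% interval -0.79 to 0.02, limma adjusted p = 0.222). The Cd3g probe set stood at the 80.7th percentile of all probe sets, while those of Cd3e and Cd3d stood at the 16.6th and 27.1st. Signals of different probe sets do not measure relative abundance.

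Cd4, the co-receptor of helper T cells, which rat macrophages also carry, was 8.42, 7.26, 8.19, 8.54 and 8.63 in the vehicle arrays. Values after DMPT were 8.23, 8.24, 8.36, 8.31 and 8.31. The DMPT arrays were close together, inside a vehicle range widened by vehicle replicate 2. The difference was 0.08 (95% interval -0.39 to 0.55, limma adjusted p = 0.872), and -0.16 without vehicle replicate 2 (limma adjusted p = 0.341).

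Cd8a, the co-receptor of cytotoxic T cells, was 6.76, 7.16, 6.57, 7.14 and 6.59 in the vehicle arrays. After DMPT it was 6.33, 6.96, 7.81, 6.88 and 6.79. DMPT replicate 3 was the highest of all, and DMPT replicate 1 the lowest. The difference was 0.11 (95% interval -0.41 to 0.63, limma adjusted p = 0.834), and -0.10 without DMPT replicate 3. The dimmest of its 3 probe sets differed in the other direction, by -0.04 (limma adjusted p = 0.874). The remaining T cell markers, Cd2, Cd3d, Cd5, Cd8b, Lck, Zap70 and Lcp2, differed by -0.15 to 0.07.

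For B cells, Cd79b, the partner chain of Cd79a, was the single measured marker. It was 6.22, 6.47, 6.62, 6.84 and 6.36 in the vehicle arrays and 6.43, 6.50, 6.55, 6.63 and 6.56 after DMPT. All DMPT values lay within the vehicle range, with a difference of 0.03 (95% interval -0.22 to 0.29, limma adjusted p = 0.913).

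The 3 NK and cytotoxic markers were all near background, and none passed. Prf1, the pore-forming protein perforin, was 4.83, 5.28, 4.79, 4.60 and 4.63 in the vehicle arrays. The DMPT arrays gave 5.15, 5.73, 5.34, 5.34 and 4.91. The groups overlapped only through vehicle replicate 2, which was the highest vehicle array. The difference of 0.47 (SE 0.17) had a limma adjusted p of 0.0974. Leaving out vehicle replicate 2 gave 0.58 (limma adjusted p = 0.0265).

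Klrd1, the CD94 chain of NK receptors, was 4.74, 5.10, 5.70, 5.30 and 5.64 in the vehicle arrays. DMPT replicates 1 to 5 gave 4.56, 5.36, 4.85, 5.24 and 4.57. The ranges overlapped, and the difference was -0.38 (95% interval -0.85 to 0.08, limma adjusted p = 0.303). The granule protease Gzmb differed by 0.17.

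Both mast cell markers overlapped between the groups. Kit, the stem cell factor receptor, was 8.52, 7.43, 8.67, 8.59 and 8.34 in the vehicle arrays. Values after DMPT were 8.52, 8.55, 8.40, 8.44 and 8.72. Apart from a low vehicle replicate 2, the ranges of the groups largely coincided. The difference was 0.22 (95% interval -0.23 to 0.67, limma adjusted p = 0.577), and -0.00088 when vehicle replicate 2 was left out.

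Cpa3, the mast cell carboxypeptidase, was 4.79, 4.42, 4.94, 5.00 and 4.66 in the vehicle arrays. After DMPT it was 4.80, 4.78, 4.60, 4.62 and 4.92. Its DMPT arrays lay within the vehicle range, with a difference of -0.02 (95% interval -0.28 to 0.25, limma adjusted p = 0.956).

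**Figure D3:**
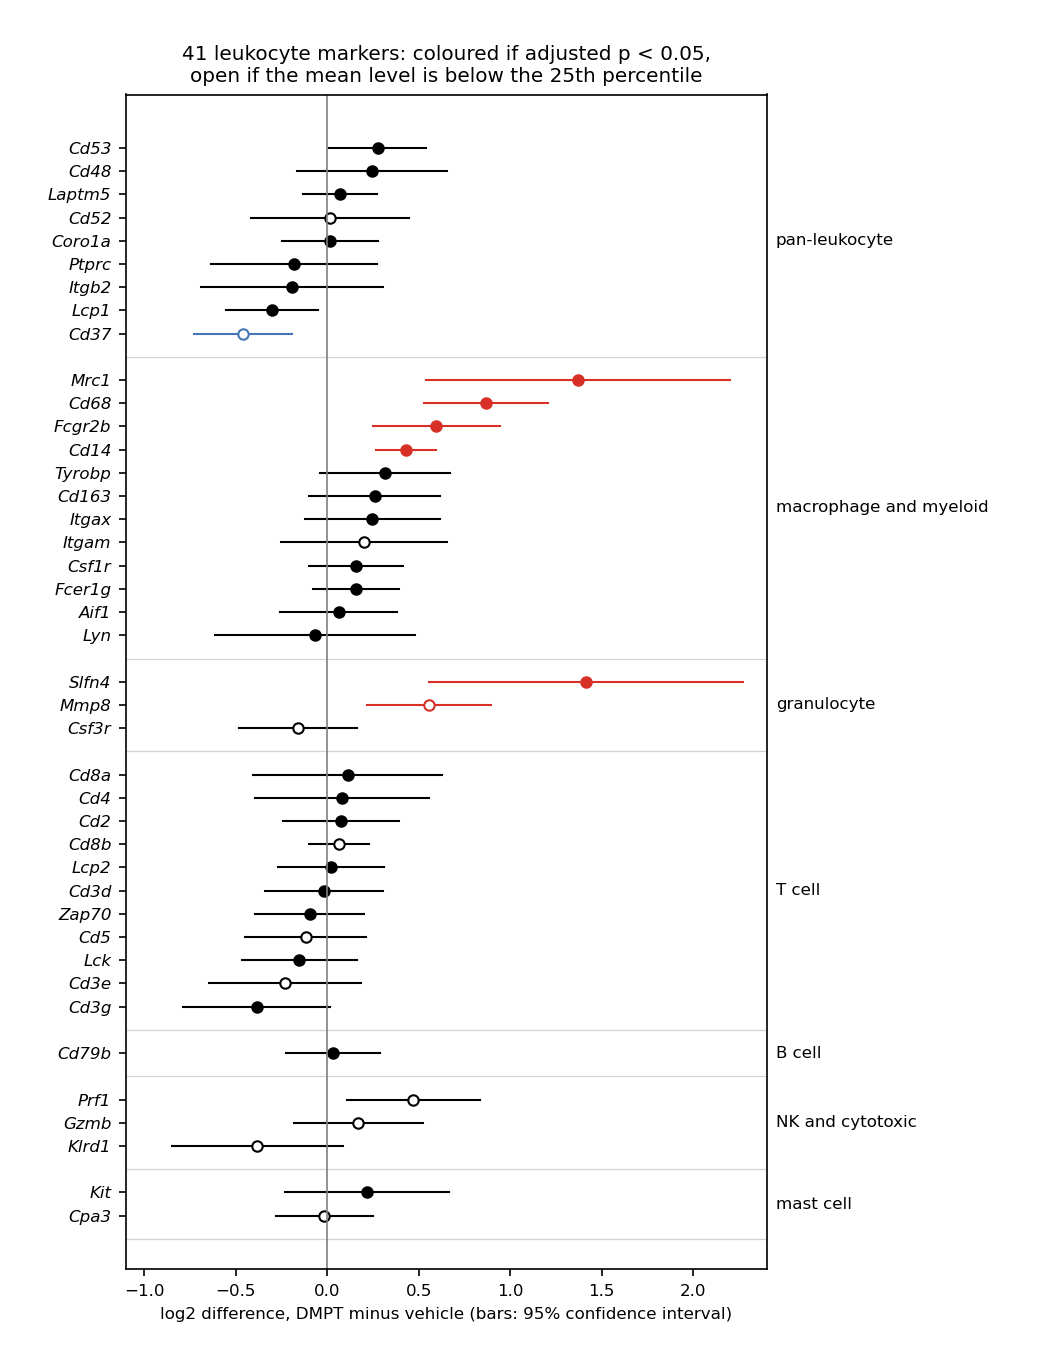
Log2 difference, DMPT minus vehicle, of the leading probe set of each of the 41 measured markers with its 95% interval, ordered by lineage, coloured where called and open where the mean level is below the 25th percentile. Of the 12 macrophage and myeloid markers 11 lie above 0, while the T cell markers lie between -0.39 and 0.11.

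Many of these markers were dim. The mean over the 10 arrays was below the 25th percentile of all probe sets (6.46) for 12 of 41 markers. These were Cd37, Cd52, Itgam, Csf3r, Mmp8, Cd3e, Cd5, Cd8b, Klrd1, Gzmb, Prf1 and Cpa3. A comparison list of genes typical of tissues outside the nose had 34 measured genes with a median of 6.05, and 10 markers were at or below that median. In that list 26 of 34 genes were below the 25th percentile and 0 were called by limma through their leading probe set, with 3 at an unadjusted p under 0.05. A dimmer probe set of Fshb, a pituitary hormone subunit, was called lower (-1.18, limma adjusted p = 0.0284), at a mean of 4.63. By lineage, 3 of 3 NK markers, 2 of 3 granulocyte markers and 3 of 11 T cell markers were below the 25th percentile, beside 1 of 12 macrophage and myeloid markers.

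Of the 12 dim markers, Mmp8 and Cd37 were called (16.7%). Among the 29 markers above the 25th percentile, 5 rose and 0 fell (17.2% called). Both shares were close to each other, beside 13.9% of all genes.

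**Figure D4:**
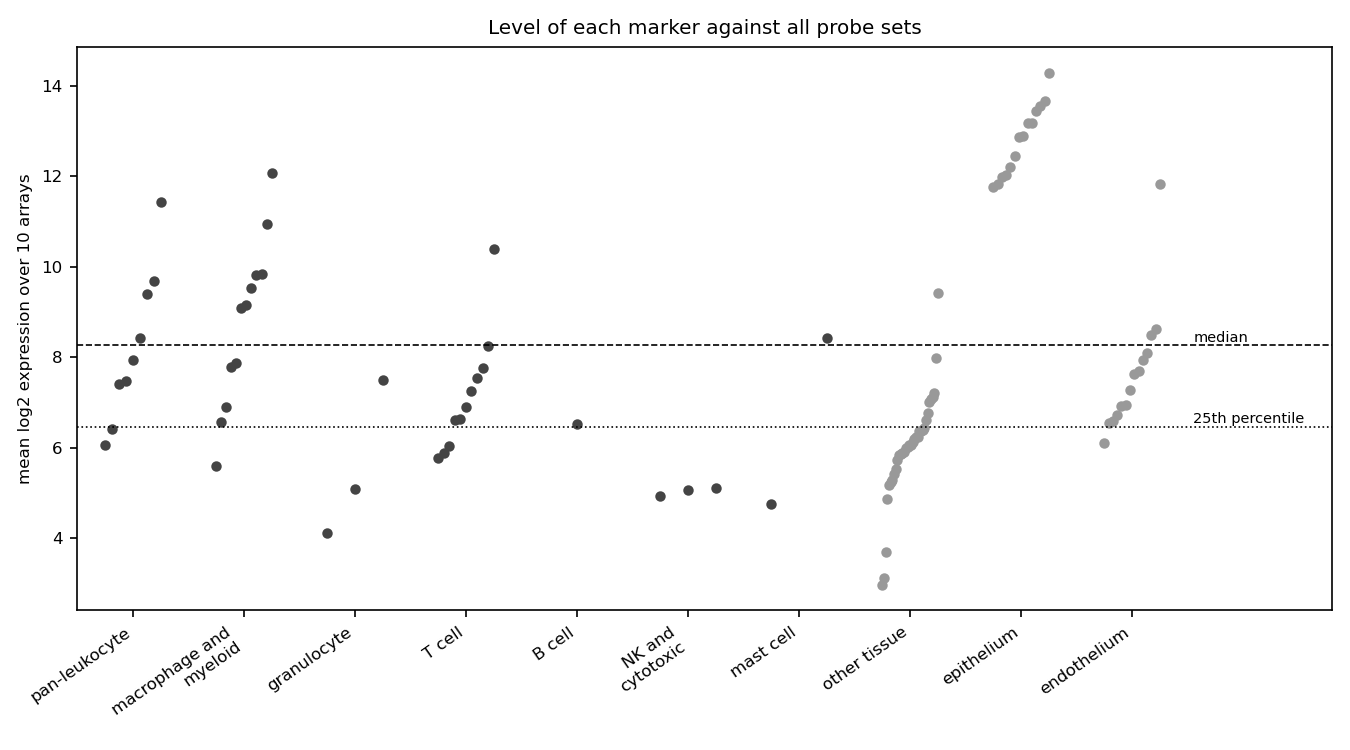
Mean log2 level over the 10 arrays of each measured marker, by lineage, beside the genes (grey) of the lists for other tissues, epithelium and endothelium, with the median and 25th percentile of all probe sets as lines. All 3 NK markers lie below the 25th percentile, and 11 of 12 macrophage and myeloid markers lie above it.

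A wider set of 134 further leukocyte genes was read in the same way. Of the 100 measured, 4 rose and 2 fell, or 6.00%, beside 13.9% of all genes, and their median difference was 0.02. The macrophage and dendritic cell genes of this set, 24 in number, had 4 that rose and 1 that fell, with 14 differences above 0, 10 below and a median of 0.09. The 4 that rose were the complement subunits C1qa, C1qb and C1qc, and Stab1, the scavenger receptor stabilin-1. None of the set's 13 pan-leukocyte, 11 granulocyte, 16 T cell, 12 B and plasma cell and 12 mast cell genes was called by limma. Their median differences were 0.12, 0.16, -0.13, -0.07 and -0.04, and 2, 5, 11, 8 and 8 differences were below 0, in that order. At an unadjusted p under 0.05 these lists held 1, 0, 3, 3 and 2 genes, in that order. The macrophage and dendritic list held 8 of 24 and the NK list 5 of 12. Of the NK differences 8 were above 0 and 4 below. The score of the wider pan-leukocyte list exceeded every vehicle score in 4 of the 5 treated rats. The macrophage and dendritic score did so in 2, the granulocyte score in 1 and the other scores of this set in 0. For the markers, those counts were 0 for pan-leukocyte, 4 for macrophage and 4 for granulocyte scores.

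Stab1 was 7.23, 7.26, 7.55, 6.97 and 6.98 in the vehicle arrays and 7.86, 7.93, 8.07, 8.03 and 7.77 after DMPT. Its groups were apart, with a difference of 0.73 (SE 0.12, limma adjusted p = 0.00286). C1qc was 10.51, 10.75, 10.67, 10.35 and 10.77 in the vehicle arrays and 11.13, 11.06, 11.36, 11.25 and 11.31 after DMPT. Its groups were apart as well, with a difference of 0.61 (SE 0.11, limma adjusted p = 0.00392).

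C1qb was 8.53, 8.03, 8.50, 8.52 and 8.47 in the vehicle arrays and 8.86, 8.86, 9.51, 9.02 and 9.42 after DMPT. All DMPT arrays were above all vehicle arrays, with a difference of 0.72 (SE 0.16, limma adjusted p = 0.0128). C1qa overlapped between the groups and differed by 0.59 (SE 0.17, limma adjusted p = 0.0495), a call lost without 8 of the 10 arrays. Stab1, C1qb and C1qc kept their calls without any one array, and C1qb lost its call with the RNA quality covariate (limma adjusted p = 0.068).

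The 2 genes that fell were Lyz2, a lysozyme on the same macrophage and dendritic cell list, and Ncr3, an activating NK receptor, 1 of 12 measured on the NK list. Lyz2 differed by -0.38 (SE 0.11, limma adjusted p = 0.0495), and its call survived the removal of a single array only for vehicle replicate 2. Ncr3 differed by -0.50 (SE 0.13, limma adjusted p = 0.0311). Leaving out any of 6 arrays ended that call, and both genes lost theirs with the RNA quality covariate and with array medians subtracted.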

How the data were processed

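The values are log2 expression values per probe set, deposited by the authors and made with RMA per the submitters' processing notes; its version is not given in the sources at hand. Per the labels' protocols, RNA from captured cells was amplified before hybridisation. Of 31099 probe sets, 57 controls were left out. An intercept and a treatment term were fitted by limma 3.58.1 (lmFit, then eBayes; R 4.3.3), with two-sided p-values adjusted by the Benjamini-Hochberg method over 31042 probe sets. The script was tested on simulated data. The number of arrays limits the precision, as arrays have no read depth. Animals shared cages, and which did so is not given, so arrays were treated as independent. The authors' ORIOGEN test was not run.

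The markers and all lists were chosen with earlier results of these data known. Values in every array are given for called or non-overlapping markers, Ptprc, the defining markers of each lineage and the 2 markers of each lineage with the smallest p; of the further and check lists, up to 4 called genes each with the smallest p are named. Lyz2, Foxj1 and the dimmer Fshb probe set were named after their values were seen. Alternatives covered scaling, filtering, weighting, RNA 3' to 5' difference as a covariate, other summaries of probe sets, the replicate number as a block, and leaving out each array.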

Additional observations from a re-analysis of the deposited data

Results flagged for a closer look

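The highest and lowest arrays of the 41 markers were compared with the rest of their group by Dixon's criterion, in 82 sets of 5 arrays. In 7 sets 1 array lay apart from the others, where chance gives about 1 in 20, or 4.1. In the vehicle group, Itgb2 was 8.46 in replicate 4 (others 7.16 to 7.35), and Aif1 was 9.43 in replicate 3 (others 9.84 to 9.93). Zap70 was 7.01 in vehicle replicate 5 (others 7.32 to 7.44). Vehicle replicate 2 was low for Lyn at 8.46 (others 9.64 to 10.08) and for Kit at 7.43 (others 8.34 to 8.67). In the DMPT group, Cd3e was 5.08 in replicate 1 (others 5.71 to 5.94), and Lck was 6.97 in replicate 4 (others 6.41 to 6.50).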

How the results depend on the processing

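The 6 markers higher after DMPT numbered 3 with the RNA 3' to 5' difference as a covariate, 7 with array weights, and 2 to 5 with each array left out. The 1 lower marker numbered 0 with that covariate, with array medians subtracted, with a second quantile normalization, with the replicate block and without probe sets below the 25th percentile (which removes Cd37), and 0 to 1 with each array left out. The further leukocyte genes that rose, 4 in the fit, numbered 8 with array weights and 3 to 5 with each array left out. Those that fell, 2 in the fit, numbered 0 with the covariate, 0 with medians subtracted, 4 with weights, 3 with the replicate block, and 0 to 3 with each array left out. No pairing is stated, so the replicate numbers were not taken as pairs. Same-numbered arrays of the groups correlated at -0.067 to 0.234 in their deviations. Replicates 2 and 3 of both groups and vehicle replicate 1 correlated best with the same number in the other group. The other arrays did not. With the block 4 markers were higher (Cd14, Cd68, Slfn4 and Prf1).

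Some uncalled differences changed sign: with the covariate Csf3r gave 0.076, Cd4 -0.156 and Kit -0.026; with array weights Cd4 gave -0.055; with the mean of all probe sets Cd3e gave 0.017; and Cpa3 gave 0.023 with medians subtracted and 0.0096 with a second quantile normalization. With each array left out, Cd4 ranged from -0.16 to 0.18, Cd8a from -0.10 to 0.27, Cd79b from -0.040 to 0.12, Kit from -0.00088 to 0.31 and Cpa3 from -0.10 to 0.042. Prf1 passed with the covariate (0.77, limma adjusted p = 0.0021). It also passed with array weights, with the replicate block and without vehicle replicate 2.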

Other observations

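Arrays took unequal shares of the extremes over the 41 markers, where an even split within a group of 5 would give each array 8.2. DMPT replicate 1 was the lowest DMPT array for 23 markers and the highest for 4. DMPT replicates 4 and 3 were the highest DMPT array for 14 and 12 markers. In the vehicle group, replicate 2 was the lowest array for 14 markers and the highest for 10.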
